A study of Mus musculus with 3 samples.

Results

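The extracellular matrix module comprised 92 genes out of the 8251 with a gene name on the array. They were the genes whose symbols match a fixed set of name stems. The stems stand for collagens, laminins, nidogens, fibulins, fibrillins, fibronectin, tenascins, thrombospondins, SPARC, spondins, matrilins, vitronectin and reelin. Further stems stand for a set of matrix and cell surface proteoglycans, matrix metalloproteinases, ADAMTS proteases, TIMP inhibitors and lysyl oxidases. Relatives with other symbols, such as Smoc1, Spock2 and Ptprz1, were read in a separate list. The 92 genes were read by 129 of the 12422 probe sets that were not controls, chosen by symbol alone and by no measured value. Total RNA came from neural retinas of wild-type mice at postnatal day 7, littermates of Rp1-/- animals on a mixed 129/SvEv and C57BL/6 background, collected between early and mid afternoon. Each of the 3 samples pooled retinas of 3 to 4 mice and was hybridised to an Affymetrix MG-U74Av2 array, the type named in the sample titles. The 3 samples form 1 group and are called pool 1, pool 2 and pool 3, which are names only. No treated or mutant group was analysed here, so the questions were which matrix genes gave signal in the retina and how far the pools differed.

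Matrix proteins build the basement membranes of the eye: the inner limiting membrane between retina and vitreous, Bruch's membrane under the pigment epithelium and the sheath of the growing retinal vessels. Type IV collagen and laminin each form a network of trimeric molecules there, joined by nidogen and by the heparan sulfate proteoglycans perlecan and agrin. Metalloproteinases cut these proteins during vessel growth and remodelling, and TIMP proteins block the metalloproteinases. In the first postnatal week of the mouse the superficial vessel plexus spreads over the retina while neurons are still being born and wired.

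Pieces of 5 promoters are shown as examples, picked after the signal was seen: the type IV collagen pair whose chains both gave signal, reelin, and the metalloproteinase above background beside one from a chromosomal run of metalloproteinases with none. Each window runs from 250 bases before to 50 after a RefSeq start site (build GRCm38.p6, 5′ to 3′). In the first pair, capitals mark the 78 bases that both windows hold, as reverse complements of each other, and the annotated start sites lie 21 bases apart. In the Reln and Mmp14 windows they mark GGGCGG on either strand (the GC box), and in the Mmp13 window TATAAA (the TATA box). Both motifs occurred among matrix genes with signal and among those without, and the differences in share were not tested. TATAAA was in 1 of 14 windows of matrix genes above background in all pools and in 14 of 50 of the others. GGGCGG was in 10 of 14 windows of matrix genes above background in all pools and in 31 of 50 of the others. Sparc and Col9a1 gave signal without it, and Hspg2 gave none with it.
Col4a1, chr8:11312777-11313076, minus strand: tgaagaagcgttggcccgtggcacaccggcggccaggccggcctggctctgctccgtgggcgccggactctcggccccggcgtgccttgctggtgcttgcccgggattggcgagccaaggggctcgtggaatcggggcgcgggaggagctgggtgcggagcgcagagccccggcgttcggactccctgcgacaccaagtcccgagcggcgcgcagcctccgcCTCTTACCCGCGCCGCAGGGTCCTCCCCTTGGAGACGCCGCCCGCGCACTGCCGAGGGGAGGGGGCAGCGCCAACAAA
Col4a2, chr8:11312555-11312854, plus strand: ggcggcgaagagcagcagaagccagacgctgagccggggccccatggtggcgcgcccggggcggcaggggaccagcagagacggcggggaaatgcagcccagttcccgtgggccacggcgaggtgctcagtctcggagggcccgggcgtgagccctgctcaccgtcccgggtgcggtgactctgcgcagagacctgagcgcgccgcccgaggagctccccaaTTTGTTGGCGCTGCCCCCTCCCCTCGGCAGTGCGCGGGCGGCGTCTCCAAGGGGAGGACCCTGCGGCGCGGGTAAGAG
Reln, chr5:22344656-22344955, minus strand: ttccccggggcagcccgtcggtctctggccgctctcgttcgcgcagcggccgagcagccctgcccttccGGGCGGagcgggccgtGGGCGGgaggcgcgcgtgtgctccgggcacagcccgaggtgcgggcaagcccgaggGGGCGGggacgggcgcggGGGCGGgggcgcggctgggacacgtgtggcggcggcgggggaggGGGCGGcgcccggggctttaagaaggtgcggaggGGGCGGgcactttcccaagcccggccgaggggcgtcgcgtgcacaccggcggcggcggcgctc
Mmp14, chr14:54431348-54431647, plus strand: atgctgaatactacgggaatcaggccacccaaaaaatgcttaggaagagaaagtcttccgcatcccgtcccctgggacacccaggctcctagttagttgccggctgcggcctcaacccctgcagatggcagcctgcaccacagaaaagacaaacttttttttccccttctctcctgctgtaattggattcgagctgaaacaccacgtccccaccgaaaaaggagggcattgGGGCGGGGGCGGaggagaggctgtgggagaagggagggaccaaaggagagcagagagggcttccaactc
Mmp13, chr9:7272264-7272563, plus strand: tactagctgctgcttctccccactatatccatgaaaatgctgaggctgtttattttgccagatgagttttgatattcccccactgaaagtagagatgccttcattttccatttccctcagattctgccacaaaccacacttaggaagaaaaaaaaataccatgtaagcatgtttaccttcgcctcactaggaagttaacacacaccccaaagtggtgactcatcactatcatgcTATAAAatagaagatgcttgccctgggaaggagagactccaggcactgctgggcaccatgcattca

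A smaller share of matrix genes than of all genes gave signal above background. Of the 92 matrix genes, 20 (21.7%) were above the background bar in all 3 pools, against 41.4% of all 8251 genes. A further 8 were above it in 1 or 2 pools, so that 28 passed in at least 1 pool, against 52.6% of all genes. The other 64 passed in none, with intensities from 5.85 to 349. The bar of a pool was the 90th percentile of 58 measured genes that the retina should lack, an intensity of 336, 328 and 357 in pools 1, 2 and 3. Of these 58, 2 (Cel and Lhb, 3.45%) were themselves above the bar in all 3 pools and 47 in none. Another, Cela1, differed widely between pools, at 73, 427 and 695. Intensities are the deposited values after scaling each array to a common median. They compare pools for 1 probe set and do not rank genes, and a dim probe set is no proof of a silent gene. In pooled tissue, fewer cells of a type and less RNA per cell cannot be told apart.

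**Figure D1:**
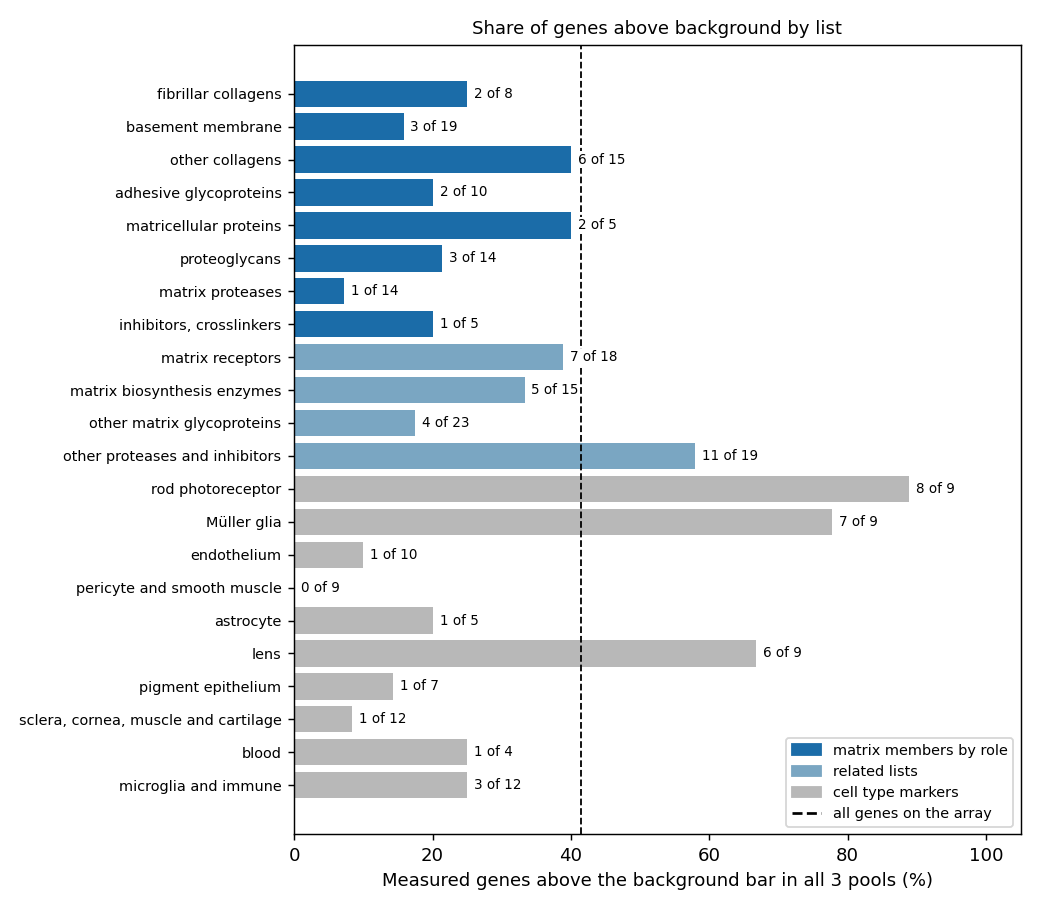
Share of measured genes above the background bar in all 3 pools, in percent, for the matrix genes by role, for related lists and for cell type markers, with counts beside the bars. The dashed line is the 41.4% of all genes. Each role of matrix genes lies left of it, from 7.14% for matrix proteases to 40% for other collagens and for matricellular proteins.

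Among basement membrane genes, both chains of the common type IV collagen trimer and agrin gave signal, while no laminin chain did so in all pools. Col4a1 had an intensity of 1052, 1377 and 1359 in pools 1, 2 and 3 (mean 1263 ± 183, SD, n = 3 pools). Col4a2, its partner chain and head-to-head neighbour on chromosome 8, was at 923, 1171 and 1254 (1116 ± 172). Both were lowest in pool 1, with deviations of -0.25 and -0.26 from their means on the log2 scale, and pools 2 and 3 lay close together. The chains of the other type IV trimers, Col4a3, Col4a4 and Col4a5, were below the bar in every pool, as Col4a5 showed with 177, 229 and 183.

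Agrn, which encodes agrin, the proteoglycan that also gathers acetylcholine receptors at the neuromuscular junction, was at 2541, 2867 and 2032 (2480.0 ± 421). Its second probe set was above the bar in all pools too, which made Agrn the single matrix gene with several probe sets that all passed. Lama1, the laminin alpha chain of early basement membranes, was above the bar in pool 2 alone, at 224, 445 and 198. Lamc1, the gamma chain shared by most laminins, was below it by its chosen probe set. A second Lamc1 probe set, of a type that can be shared between related transcripts, was at 335, 591 and 680 and passed in pools 2 and 3. Col7a1, the anchoring fibril collagen, passed in pools 1 and 3, at 346, 248 and 361. Lama2, Lama3, Lama4, Lama5, Lamb1, Lamb2, Lamb3, Nid1, Nid2 and Hspg2, which encodes perlecan, were in no pool above the bar. In all, 3 of the 19 measured genes listed under basement membrane passed in every pool. Col18a1 was counted with the other collagens.

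Fibrillar collagens, the rope-like collagens of connective tissue, passed for 2 of 8 measured genes. Col5a1, a regulator of fibril width, was at 658, 591 and 755 (668 ± 82.4). Col1a1, the main collagen chain of bone and sclera, was at 369, 570.0 and 404 (448 ± 108), so that pool 1 was only just above its bar. Its other probe set was below the bar, at 78.9, 213 and 13.2. Col1a2, which encodes the other chain of type I collagen, was at 17.1, 120.3 and 42.7 by its chosen probe set. Another Col1a2 probe set, of the type made under relaxed selection rules, was at 946, 1089 and 1159, so the readings of this gene contradict each other. Col2a1, Col3a1, Col5a2, Col11a1 and Col11a2 were below the bar in every pool.

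The other collagens had the most members above the bar among the collagen roles, 6 of 15, a share of 40% that is close to that of all genes. All 3 chains of type IX collagen, which decorates type II collagen fibrils in cartilage and vitreous, were among them. Col9a1 was at 755, 647 and 755 (719 ± 62.3) and Col9a2 at 402, 415 and 436 (417 ± 17.3). Col9a3 was at 1206, 760 and 647 (871 ± 296), lowest in pool 3, whereas Col9a1 was lowest in pool 2 and Col9a2 in pool 1. Col2a1, the collagen they decorate, was at 57.44, 12.96 and 15.83.

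Col6a1, a chain of the beaded-filament type VI collagen, was at 1119, 1095 and 1006 (1073 ± 59.7), while Col6a2 and Col6a3 were below the bar in every pool. Col18a1, the basement membrane collagen from which endostatin is cut, was at 778, 861 and 901 (847 ± 62.7). Its other 4 probe sets stayed below the bar in every pool. Col17a1, a transmembrane collagen of hemidesmosomes, was at 425, 694 and 562 (560 ± 135), lowest in pool 1. Col8a1, Col10a1, Col12a1, Col13a1, Col14a1, Col15a1 and Col19a1 did not pass in any pool, nor did Col22a1 and Col26a1.

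Among adhesive and elastic fibre glycoproteins 2 of 10 passed, reelin and fibronectin. Reln, the secreted protein that guides neuronal layering, was at 2888, 3055 and 2781 (2908 ± 138), with a coefficient of variation of 4.76% over the pools. Its second probe set, of a relaxed type, was at 157.4, 40.19 and 42.01. Fn1, which encodes fibronectin, was at 608, 808 and 803 (740 ± 114), lowest in pool 1 like the type IV collagen pair. Fbln1, a fibulin of elastic fibres and basement membranes, passed in pools 1 and 3 by its chosen probe set, at 392, 304 and 447. Another Fbln1 probe set passed in all 3. Fbn2, Fbln2, Vtn and the matrilins Matn1, Matn2, Matn3 and Matn4 did not pass in any pool.

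Matricellular proteins, which signal to cells rather than build fibres, passed for 2 of 5 genes. Sparc, a collagen-binding protein of remodelling tissue, was at 2011, 1244 and 1287 (1514 ± 431) and so was 0.45 above its mean in pool 1 on the log2 scale. Sparcl1, its relative made by glia, was at 389, 435 and 382 (402 ± 28.8), with pool 3 only just above its bar of 357. Tnc, the tenascin of developing nervous tissue, was at 439, 322 and 375 and missed the bar in pool 2. Thbs2 and Thbs3 were below it throughout.

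Of the 14 measured genes listed as proteoglycans, 3 were above the bar in all pools, each encoding a cell surface protein. Agrn was counted with the basement membrane genes and is not among the 14. Gpc1, a lipid-anchored heparan sulfate proteoglycan, was at 840, 977 and 578 (798 ± 203). Sdc2, a transmembrane syndecan, was at 508, 364 and 393 (422 ± 76.1), with pools 2 and 3 only just above their bars of 328 and 357. Sdc4, the syndecan of focal adhesions, was at 402, 655 and 880 (646 ± 239), a 2.19-fold range and the widest of the 20 genes. Vcan, the hyaluronan-binding versican, passed in pool 1 alone (369, 220 and 168). Bgn, the small leucine-rich proteoglycan biglycan, passed in pool 3 alone (259, 235 and 374). Below the bar in every pool were Acan, Bcan, Dcn, Lum, Ncan, Gpc3, Gpc4, Sdc1 and Sdc3.

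Of 14 measured matrix proteases, Mmp14 was the one above the bar. It encodes a membrane-anchored metalloproteinase that activates the gelatinase proMMP2, and was at 847, 855 and 990 (897 ± 80.5). Mmp2 itself, which encodes that gelatinase, was below the bar in every pool by both probe sets, the chosen one at 122, 75.8 and 84.8. Mmp3, Mmp7, Mmp8, Mmp9, Mmp10, Mmp11, Mmp12, Mmp13, Mmp16, Mmp17, Mmp24 and Adamts1 did not pass in any pool. Of these, 6 form a run on chromosome 9 (Mmp3, Mmp7, Mmp8, Mmp10, Mmp12 and Mmp13), where no pool exceeded 237.

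Inhibitors and crosslinking enzymes passed for 1 of 5 measured genes, and 2 more inhibitors passed in part of the pools. Timp1 was at 808, 698 and 1012 (839 ± 159), above the bar in each pool. Timp2, the inhibitor that also takes part in MMP2 activation, was at 145, 654 and 503, and Timp3, which is bound to matrix and known from Bruch's membrane, at 381, 122 and 198. Timp2 thus passed in pools 2 and 3 and Timp3 in pool 1 alone. The crosslinking enzyme genes Lox and Loxl1 did not pass in any pool.

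**Figure D2:**
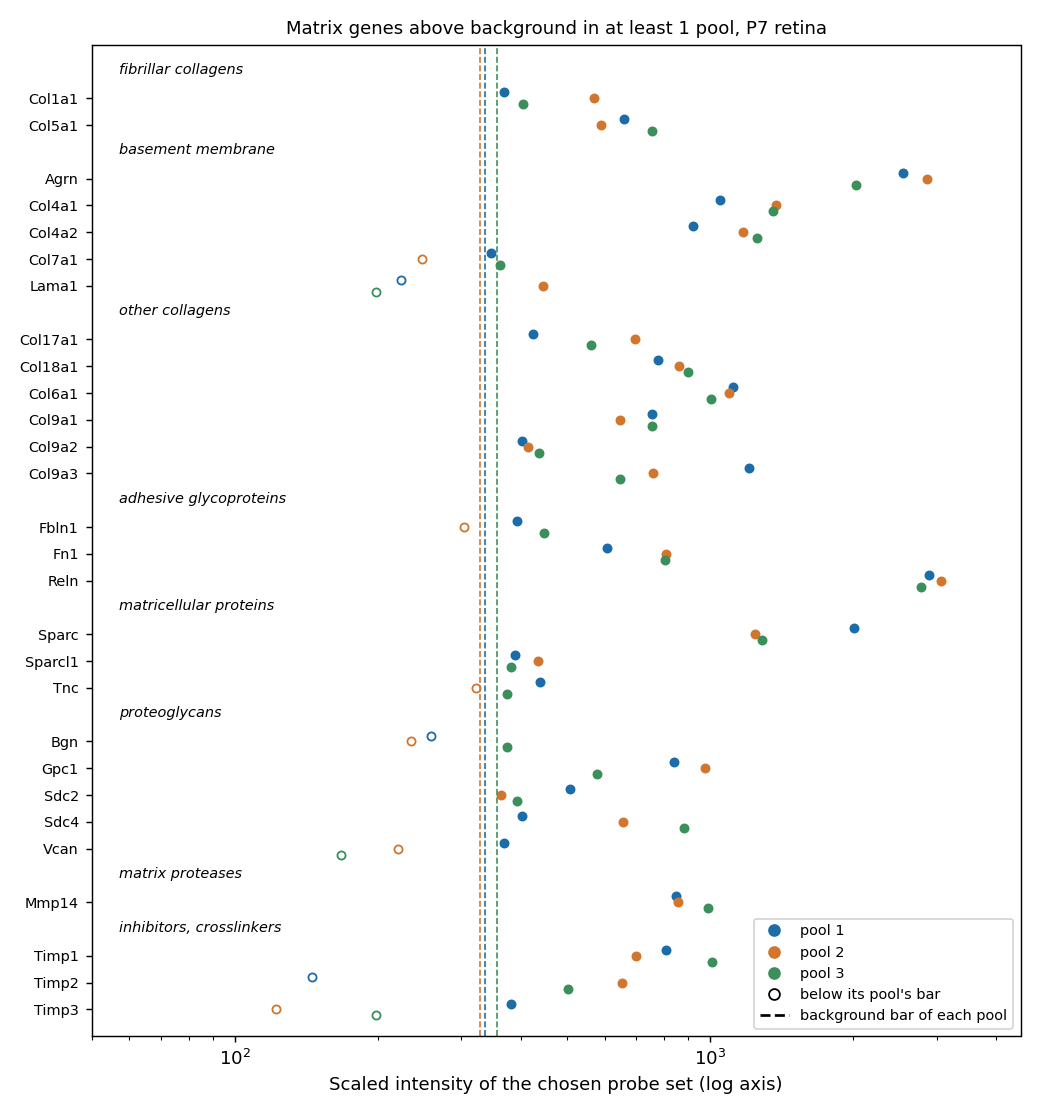
Scaled intensity (log axis) of the chosen probe set in each pool for the 28 matrix genes above background in at least 1 pool, by role. Filled points lie above the bar of their pool and open points below it, and dashed lines are the bars at 336, 328 and 357. Lama1, Vcan, Timp2 and Timp3 have points on both sides, well apart.

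Different probe sets of the same matrix gene did not always agree. Of the 30 matrix genes with several probe sets, 10 had some but not all above the bar in every pool, 19 had none and Agrn had all. The same count was not made over all genes with several probe sets, so it is no trait of matrix genes. The second probe sets of Reln, Sdc2, Timp1, Col5a1, Col6a1 and Col9a3 were below the bar in every pool, so no ratio between the probe sets of these genes was measured. Counting a gene by any of its probe sets added Col1a2 and Fbln1, for 22 of 92 matrix genes, against 42.9% of all genes.

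**Figure D3:**
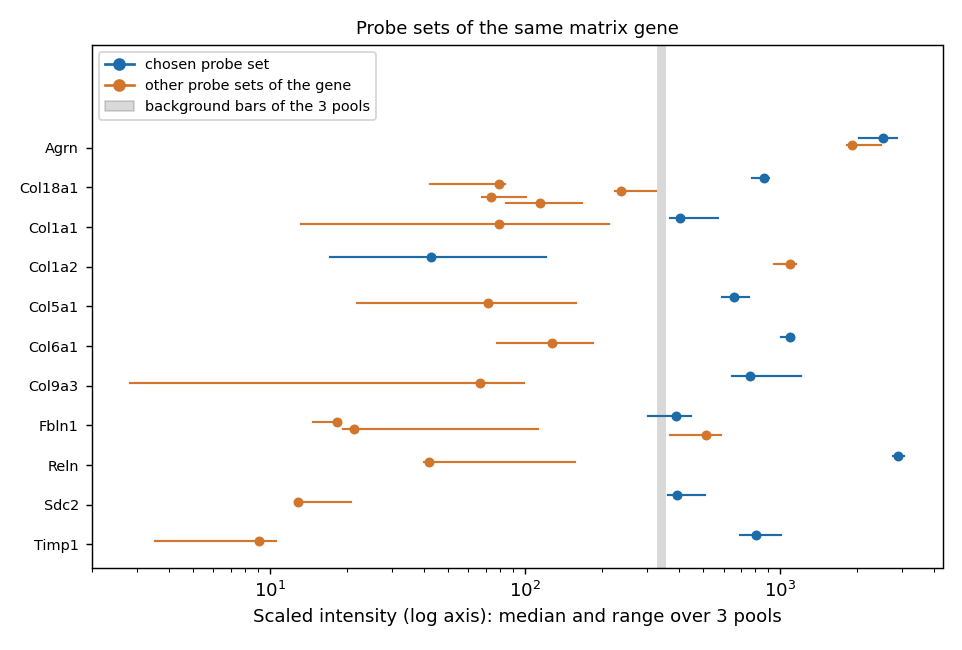
Scaled intensity (log axis) of every probe set of the 11 matrix genes that had several and at least 1 above the bar in all pools, as the median (point) and range (line) over the 3 pools. The grey band covers the 3 bars. Both Agrn probe sets lie right of it, whereas Col1a2 has one on each side.

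Among the matrix probe sets bright enough to test, the spread between pools was near that of all probe sets tested. Of the 129 probe sets, 38 lay in the brighter 50% of the array, where spread was tested, and these came from 34 of the 92 genes. Their median SD over the pools was 0.25 on the log2 scale, against 0.26 for all 6211 probe sets tested. The 20 genes above the bar had a median coefficient of variation of 15.4%, against 16% for all genes above the bar. For 14 of the 20 matrix genes the highest pool was under 1.5 times the lowest, a count not made for all genes above the bar. A range above 2-fold was seen for 5 of the 38 probe sets (13.2%), those of Lama1, Lamc1, Sdc4, Timp2 and Vcan, against 8.63% of all tested. The count was 1 without pool 1 and 1 without pool 3. Of all 129 probe sets, dim ones included, 33 had such a range, against 20.8% of all probe sets. Where the lowest pool lay under the floor of 42.2, the range was taken from the floor. For Lama1, Lamc1 and Vcan the lowest pool lay below its bar, so their folds are at least 1.25, 2.02 and 1.03.

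One of the 38 matrix probe sets, that of Timp2, varied more than probe sets of its brightness (limma adjusted p = 0.00205 over all 6211). Of all probe sets tested, 1.34% did so. Without adjustment, limma's p was below 0.05 for 2 of the 38 (Timp2 and Sdc4), against 6.76% of all. The test sets the variance over the 3 arrays against the one limma estimates for that brightness and uses no grouping. Since pool 1 lay below its bar, the fold is a bound: pool 2 was at least 1.95-fold higher than pool 1. The other 2 Timp2 probe sets were below the bar in every pool. The call rested on pools 1 and 2: the adjusted p was 0.983 without pool 1, 0.78 without pool 2 and 0.0096 without pool 3. It was 0.408 with values as deposited and 0.276 after quantile normalisation. The other 37 had adjusted p from 0.624 (Sdc4) to 0.999.

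**Figure D4:**
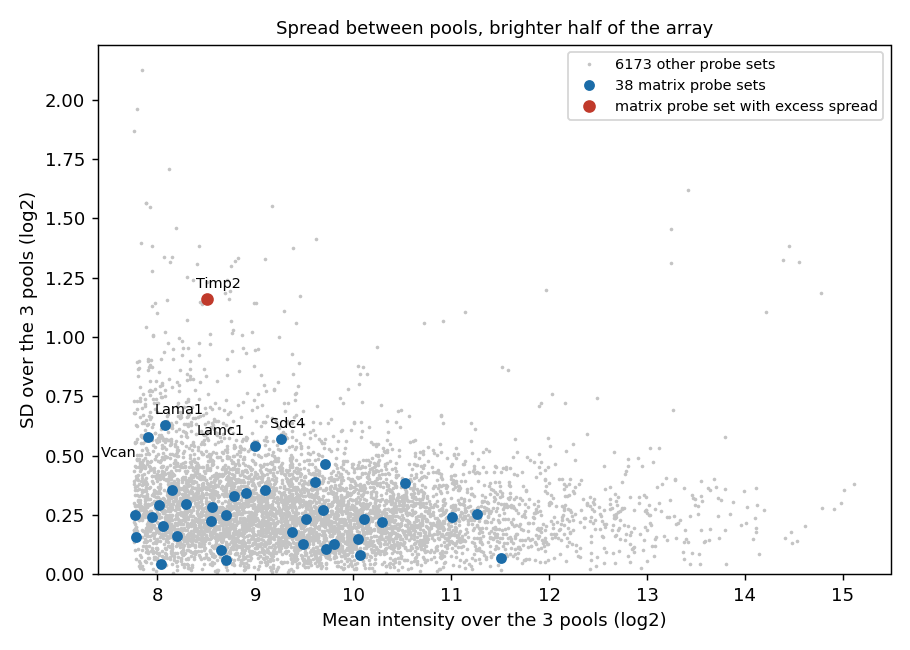
SD over the 3 pools against mean intensity, both on the log2 scale, for the 38 matrix probe sets and the other probe sets of the brighter 50% of the array. Timp2 stands at an SD of 1.16, and Lama1, Vcan, Sdc4 and Lamc1 come next. The other matrix points lie among the grey ones.

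The pool that was highest or lowest varied among the matrix genes. Over the 20 genes above the bar the median deviation from the gene's mean was -0.04, 0.05 and 0.05 on the log2 scale in pools 1, 2 and 3, against -0.05, 0.14 and -0.09 for all genes above the bar. Pool 1 was the lowest for 9 of the 20 (45%), among them Col4a1, Col4a2, Fn1, Col17a1, Sdc4 and Mmp14, against 38.8% of all genes above the bar. Sparc, Col9a3, Sdc2 and Col6a1 were highest in pool 1 (20%, against 24.2% of all). Pool 2 was the highest for 8 of the 20 (40%), against 58.8% of all, and the lowest for 5 (25%), against 15.1%. Pool 3 was the highest for 8 (40%), against 16.9% of all, and the lowest for 6 (30%), against 46.1%. With values as deposited the medians of the 20 genes were 0.017, -0.069 and 0.11, against 0.009, 0.015 and -0.024 for all genes above the bar. After quantile normalisation the median of the 20 was -0.067 in pool 2 and 0.105 in pool 3. The sign in pool 2 thus turned under both scalings and that in pool 1 without scaling, while pool 3 stayed positive under both. Without pool 1 the pool 3 median was -0.005, against -0.107 for all genes above the bar. These shares and medians are descriptions with no test.

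Markers of other tissues were measured beside these values. Lens genes differed between pools in 8 of 8 chosen probe sets tested: their summed intensity over 9 measured genes was 26799 in pool 1, 126923 in pool 2 and 136385 in pool 3, and 6 of 9 were above the bar in all pools, namely Cryaa, Crygs, Crygc, Crygb, Cryba1 and Crybb2. These 6 had excess spread, as did Mip and Bfsp1, which were below the bar in pool 1. Pool 1 was the low pool for Timp2 and for the rod gene Gnat1 (219, 699 and 680) too. The other rod gene with excess spread, Prph2, was lowest in pool 2 (1261, 981 and 3901). In pool 1 the median deviation of the 6 lens genes above the bar was -1.55 on the log2 scale. Col4a1 and Col4a2 deviated by -0.25 and -0.26 there. Of the 20 matrix genes above the bar, 9 were lowest in pool 1 (45%) and 4 were highest. Among all genes above the bar, 38.8% were lowest in pool 1. The part of lens RNA in the matrix values was not tested. The 3' to 5' ratio of the Actb and Gapdh controls, a measure of RNA length, was also highest in pool 1. It was 1.81, 1.27 and 1.3 for Actb and 0.874, 0.788 and 0.812 for Gapdh, where the pools differed less. The part of RNA length was not tested either.

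Retinal markers were present, with 8 of 9 rod genes (Sag, Pde6b, Pde6g and Rcvrn first) and 7 of 9 Müller glia genes (Rlbp1, Glul, Apoe and Clu first) above the bar in all pools. The rod genes Gnat1 and Prph2 had excess spread too. Markers of endothelium, of pericytes and smooth muscle, of astrocytes and of sclera, cornea, muscle and cartilage were mostly below the bar. Pericyte and smooth muscle genes passed for 0 of 9, with a summed intensity of 730 to 785 over the pools. Endothelial genes passed for 1 of 10 (Kdr, summed 2574 to 2990), astrocyte genes for 1 of 5 (Pdgfra, summed 947 to 1450) and genes of sclera, cornea, muscle and cartilage for 1 of 12 (Actc1, summed 2012 to 2433). These sums include genes below the bar. They compare pools within a list and do not measure the amount of a cell type. Below the bar in every pool were 8 of 10 endothelial genes (Pecam1 and Cdh5 first) and 9 of 9 pericyte and smooth muscle genes (Pdgfrb and Rgs5 first). The same held for 4 of 5 astrocyte genes (Gfap first). The endothelial gene Eng passed in pools 1 and 2 (413, 622 and 344). Pecam1 came near the bar of 357 in pool 3, at 346. The pigment epithelium list passed for 1 of 7 (Dct), blood for 1 of 4 (Hba-a1) and microglia and immune genes for 3 of 12 (C1qc, Cx3cr1 and Cd14).

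**Figure D5:**
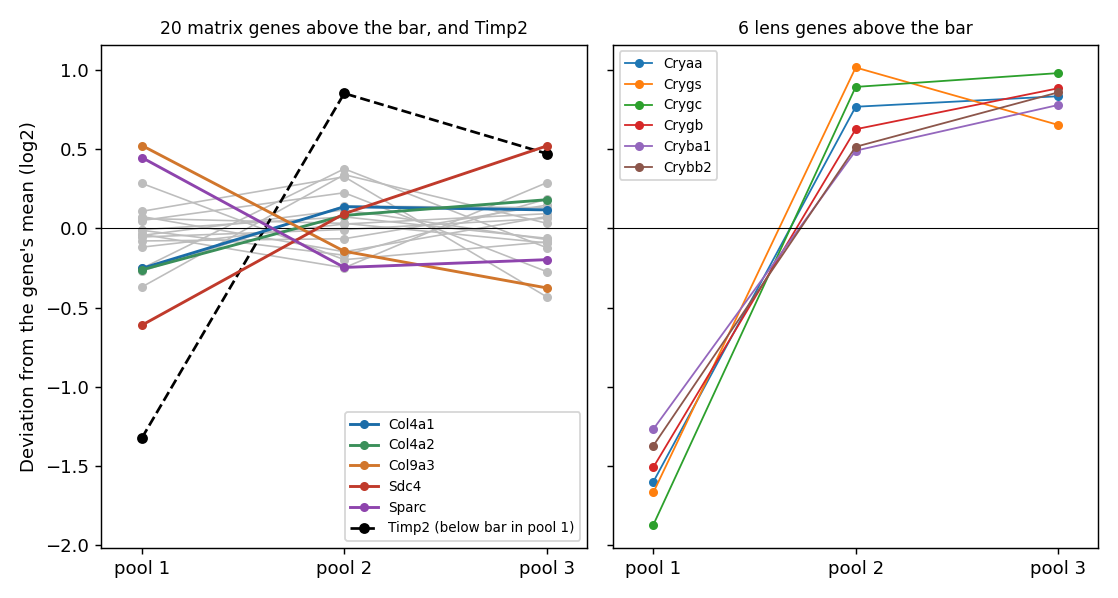
Deviation of each gene from its own mean over the pools, on the log2 scale, for the 20 matrix genes above the bar with Timp2 (left) and for 6 lens genes (right). Lines join the values of 1 gene, and the pools have no order. The lens genes are all lowest in pool 1, as is Timp2 at -1.32, whereas most matrix genes stay within 0.5 of their mean.

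Of 4 related lists, 3 had a larger share above the bar than the 21.7% of the matrix genes, and 1 of these exceeded the 41.4% of all genes. Matrix receptors passed for 7 of 18 genes, among them the integrin subunit genes Itgb1 (2385, 2767 and 1979), Itgb5 (829, 1483 and 1367) and Itga3 (479, 404 and 431) and the dystroglycan gene Dag1 (1026, 1202 and 865), a receptor of laminin and agrin. The reelin receptor gene Vldlr was below the bar in every pool (151, 117 and 205). Collagen and matrix biosynthesis genes passed for 5 of 15. These included the collagen chaperone gene Serpinh1 (1119, 1270 and 1266), the prolyl hydroxylase gene P4ha2 (352, 469 and 430), the lysyl hydroxylase gene Plod3 (497, 613 and 367) and the heparan sulfate polymerase gene Ext1 (455, 675 and 535).

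Other matrix glycoproteins passed for 4 of 23, a share of 17.4%. They were the microfibril gene Mfap2 (975, 1314 and 989), the testican gene Spock2 (2129, 2020 and 1737), the SPARC relative Smoc1 (357, 605 and 423) and the receptor phosphatase proteoglycan gene Ptprz1 (583, 716 and 555). Other proteases and their inhibitors passed for 11 of 19 (57.9%), with the plasminogen activator gene Plat (625, 761 and 903), the sheddase genes Adam9 (800.1, 637 and 594) and Adam10 (737, 738 and 783) and the lysosomal protease gene Ctsb (2170, 2559 and 2509). The chosen probe sets tested in these 4 lists had limma adjusted p of 0.743 (Adam15) or more.

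Simple sequence features were counted in the promoter windows. A window was given for 64 of the 92 matrix genes, and the first listed was used. GGGCGG on either strand was in 10 of 14 windows of genes above the bar in all pools and in 31 of 50 of the others (71.4% and 62%), against 68.7% of all measured genes above the bar, 52.2% of the other measured genes and 35.9% of all 27025 genes with a window. TATAAA on either strand was in 1 of 14 (Col17a1) and in 14 of 50, against 14.2% of all genes with a window. CCAAT on either strand was in 6 of 14 and 18 of 50, against 37.9%. The windows of the metalloproteinase run on chromosome 9 held TATAAA in 5 of 6 genes and GGGCGG in none, as the Mmp13 window above shows. Among all measured genes the share with TATAAA was 6.79% for those above the bar and 13.1% for the others. A window counted once for a motif, whatever its number of matches, and GGGCGG and TATAAA cannot overlap.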

How the data were processed

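The deposited intensities, 1 value per probe set on a linear scale, had been scaled per array by the authors, as the values show: the mean after trimming 2% at either end was 500.2, 500.3 and 500.2. For the software and any background correction, nothing is given in the sources used here. The 3 arrays were brought to a common median over the 12422 probe sets other than controls (factors 0.962, 1.09 and 0.959), floored at the 20th percentile of all values (42.2) and put on the log2 scale. The number of arrays limits the precision. The labels say only that each sample pooled several animals, so a p-value covers the differences among these 3 samples, which may be technical.

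Probe sets with 1 annotated gene (10833) were named from the platform annotation, with symbols updated by gene ID through RefSeq (GRCm38.p6). All 129 member probe sets matched. One further probe set matched the rule but carried several genes and was left out. Each gene was read by 1 probe set, one without a letter suffix first, then the brightest.

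Excess spread was tested on the 50% of probe sets with the highest mean (6211) with squeezeVar of limma 3.58.1 (robust, mean level as covariate, 2 residual degrees of freedom). Upper-tail p-values were Benjamini-Hochberg adjusted over all of them at 0.05, and the procedure was tested on simulated data. Without the adjustment, 2 of 38 matrix probe sets and 6.76% of all had p below 0.05. Promoters came from RefSeq.

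The members and gene lists were chosen with earlier results of these data known. Values are given for each member above background in all pools and each with excess spread or a range above 2-fold, and the first 4 passing genes of each related and cell type list are named, with any that had excess spread. Where the probe sets of a gene differed in passing the bar in all pools, this is stated, with values for some of them. Other members with values were chosen after these were seen. Alternatives covered scaling, bar, floor, filter, probe set choice, the robust option and leaving out each pool.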

Additional observations from a re-analysis of the deposited data

How the results depend on the processing

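The count of matrix genes above background was 41 with the bar at the 75th percentile of the unrelated-tissue genes (62% of all genes) in place of 20, and 17 to 26 under the other choices of bar, scaling and probe set, and leaving out single pools gave 20 to 23. In each of these settings the share was below that of all genes. The count of matrix probe sets with excess spread fell to 0 in place of 1 without scaling, after quantile normalisation, with all probe sets tested, in the brightest 25% and without limma's robust option, and was 0 to 1 with single pools left out. At an unadjusted p below 0.05, limma gave 1, 3, 1, 0 and 2 in those 5 settings. The adjusted p of Timp2 was 0.266 with all probe sets tested and 0.0635 without the robust option. The count with a range above 2-fold was 2 with a pseudocount of 50, 33 over all 129 probe sets, 0 in the brightest 25% and from 1 to 4 with single pools left out.

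Scaling moved pool 2 by over 0.1 on the log2 scale and turned the sign of the small median deviations in pools 1 and 2. Without scaling, the medians of the 20 genes were 0.017, -0.069 and 0.11 in pools 1, 2 and 3, and after quantile normalisation those of pools 2 and 3 were -0.067 and 0.105. Leaving out pools gave -0.059 to -0.057 in pool 1, 0.005 to 0.057 in pool 2 and -0.005 to 0.059 in pool 3. Signal near the bar limits what can be said of the dim matrix genes. No paired analysis was possible because the samples form 1 group.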
